A study of Mus musculus with 6 samples.

Results

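Matrix proteases, their Timp inhibitors and the plasminogen activators were followed in mouse ventral prostate through 9 genes, Timp1, Timp2, Timp3, Timp4, Mmp2, Mmp7, Mmp14, Plat and Plau. The 9 genes were chosen by symbol out of 30820 names of genes or transcripts on the array, and 15 of its 41174 gene probes carry one of these symbols. Of these 15 probes, 13 were bright enough to be tested, together with 27860 probes in all, and each of the 9 genes kept at least 1 tested probe. In none of the 6 comparisons did a member pass the test after adjustment over all tested probes. The values that lay farthest from young wild type were those of Timp3 and Plat in the fl26 line, both higher, and those of Timp2, which was lower on every array that measured it.

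The samples were FVB mice. The fl26 line is transgenic for full-length 15-LOX2, an enzyme that adds oxygen to arachidonic acid, and was sampled at 2.5 months. The svb9 line is transgenic for splice variant b of 15-LOX2 and was also sampled at 2.5 months. Old wild type mice were 15 months old, and young wild type mice were 2.5 months old. There are 2 arrays for each line and 2 for the old mice. On every array the group was in the red dye (Cy5) and young wild type in the green dye (Cy3), with no dye swap, so a dye effect and a group effect cannot be told apart in a comparison with young wild type. By the sample labels a pool held 3 mice, by the series design 6, and nothing in the data decides between them. The labels name neither the promoter of the transgenes nor the young pools that arrays may have had in common. The p-values therefore measure the spread between these 6 arrays, which may be technical.

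Matrix metalloproteinases (Mmps) are zinc enzymes that cut collagens, laminins and other matrix proteins, and most are made as inactive precursors. Timps bind their active site and block them, and Mmp14, which sits in the cell membrane, activates the Mmp2 precursor in a complex that contains Timp2. The plasminogen activators Plat and Plau convert plasminogen to plasmin, a protease that dissolves fibrin, cuts matrix proteins and can activate some Mmp precursors. In the prostate these enzymes are known for their part in remodelling the stroma and basement membrane around the gland ducts, and much of their expression in tissues comes from stromal and immune cells. In bulk tissue, fewer cells of a type and less RNA per cell cannot be told apart.

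The promoters of Timp3, Timp2 and Timp4 are shown first, because the 4 members of this family gave the most different values. The windows are the 250 bases before the annotated start (RefSeq, GRCm38.p6), printed 5′ to 3′ on the gene's own strand. Capitals mark a GC box, searched as GGGCGG on both strands. Timp3 lies on chromosome 10, at chr10:86300412-86349505, on the plus strand, and its window is chr10:86300162-86300411. Timp2 lies on chromosome 11, at chr11:118301061-118355411, on the minus strand, and its window is chr11:118355412-118355661. Timp4 lies on chromosome 6, at chr6:115244444-115252205, on the minus strand, and its window is chr6:115252206-115252455.
Timp3: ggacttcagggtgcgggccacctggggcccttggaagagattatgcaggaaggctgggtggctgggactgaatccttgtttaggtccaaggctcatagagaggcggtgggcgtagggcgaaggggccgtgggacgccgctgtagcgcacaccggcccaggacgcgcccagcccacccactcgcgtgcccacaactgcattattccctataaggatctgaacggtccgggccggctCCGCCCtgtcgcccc
Timp2: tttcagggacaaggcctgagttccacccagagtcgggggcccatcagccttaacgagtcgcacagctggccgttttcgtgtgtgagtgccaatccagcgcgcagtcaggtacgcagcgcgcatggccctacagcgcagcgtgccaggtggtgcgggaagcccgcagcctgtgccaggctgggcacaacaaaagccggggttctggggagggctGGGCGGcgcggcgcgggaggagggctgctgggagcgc
Timp4: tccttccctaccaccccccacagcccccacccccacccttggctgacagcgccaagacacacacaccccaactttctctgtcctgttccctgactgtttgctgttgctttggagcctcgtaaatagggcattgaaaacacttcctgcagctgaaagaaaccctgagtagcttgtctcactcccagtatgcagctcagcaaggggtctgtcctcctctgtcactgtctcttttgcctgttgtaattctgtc
Timp3 and Timp2 each have 1 GC box and a GC content of 65.6% and 68.0%, and Timp4 has 0 GC boxes and a GC content of 53.6%. The window of Timp1, which is not printed, has 1 GC box and a GC content of 54.4%. A GC box occurs in 32.7% of the 32851 promoter windows of this length, and their mean GC content is 53.2%. None of the 3 printed windows holds a TATA box (TATAAA on both strands, in 12.4% of windows) or an AP-1 site (TGANTCA on both strands, in 6.75%). The promoter table holds 6 of the 9 members. These letters describe the windows and say nothing about which factors bind there.

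The arrays were not equally bright. For red, 27151 and 27833 probes were well above background on array 1 of fl26 and of svb9, 13600 to 17623 on array 2 of the 3 groups, and 3219 on old array 1. In the green channel the number was 24837 to 30382. The net signal (spot mean minus background, in scanner units) of every member was lower in red than in green on both old arrays and on svb9 array 2, as the plot of net signals shows. On old array 1, red signal was not well above background for Timp1, Timp3, Mmp2, Mmp7, Plat and Plau, and the offset of 50 added to both channels draws such dim ratios towards 0. Mmp2 was not well above background in red on either old array. With a bound in place of its red signal, the mean over the old arrays was 1.03-fold higher in young wild type. The measured means were 7.01 in old and 7.09 in young wild type (log2, limma's adjusted p = 0.828). The measured log2 ratio over young wild type was 0.01 on old array 1 and -0.18 on old array 2. Limma's interval for the old mean, -0.38 to 0.21, included 0, so the bound does not show a higher level in young wild type. A bound sets the lowest signal among probes well above background on an array in place of a dimmer one. For Plau, red signal was well above background on array 1 of fl26 and of svb9 only. The values below come from the brightest probe of each gene, as log2 ratios with young wild type as the denominator, after loess normalization, unless another quantity is named.

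**Figure D1:**
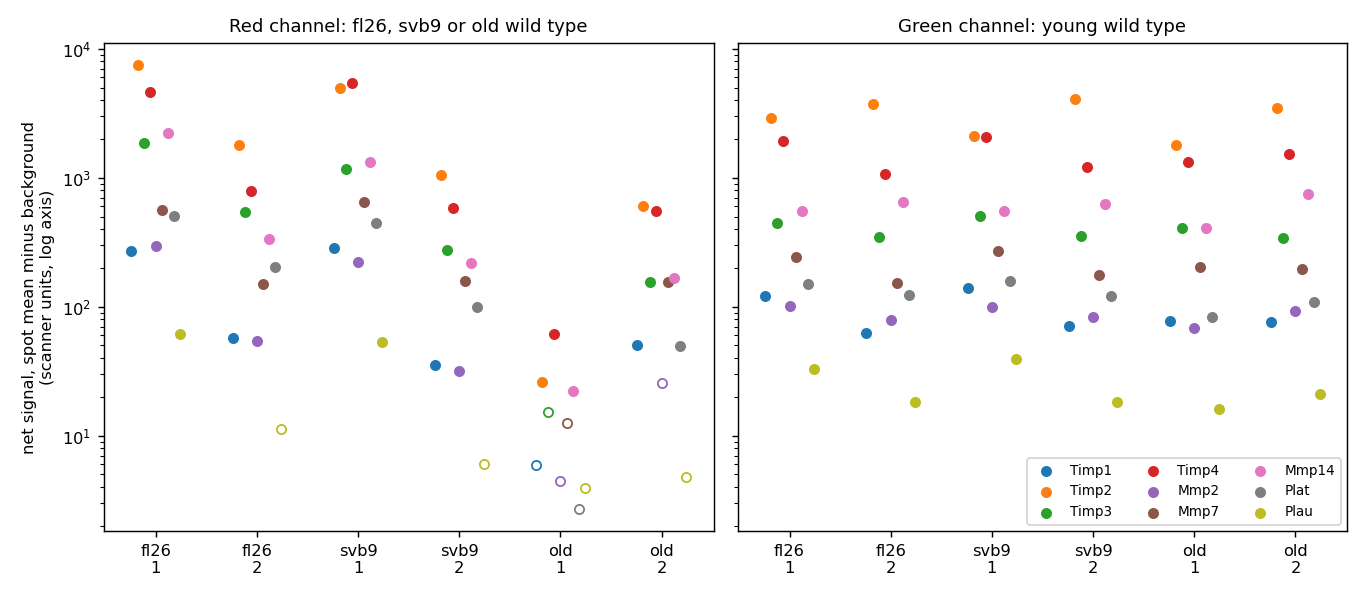
Net signal of the brightest probe of each member on the 6 arrays, in the red channel (left, fl26, svb9 or old wild type) and the green channel (right, young wild type), in scanner units on a log axis. Open points were not well above background, and 6 of the 9 members are open in red on old array 1, where 3219 probes were well above background.

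Among the inhibitors, Timp3, which is held in the matrix and also blocks several Adam proteases, gave the largest difference between fl26 and young wild type. Its log2 ratio was 0.59 and 0.83 on the fl26 arrays, -0.10 and 0.45 on the svb9 arrays and -0.08 and 0.28 on the old arrays. Both fl26 arrays lay above both svb9 arrays and both old arrays, with red signal on old array 1 not well above background. Among tested probes with values, 12.9% had both fl26 arrays above both svb9 arrays, and 17.6% had them above both old arrays. The fl26 mean was 0.71 ± 0.16 (limma standard error, 95% interval 0.33 to 1.09), or 1.64-fold higher than young wild type. Its unadjusted p was 0.00353 and its adjusted p was 0.273, so it did not pass limma's test with Benjamini-Hochberg adjustment. With the Feature Extraction date of the file headers as a term, the ratio was 0.86 and limma's adjusted p 0.0333, within a range of 0.0148 to 0.9998 over the alternatives. That fit leaves little information per probe on the spread and assumes that a date moves all groups alike. In svb9 the Timp3 mean was 0.17 (adjusted p = 0.980) and in old wild type 0.10 (adjusted p = 0.848, limma).

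Each channel of Timp3 was also read on its own. The normalized red level (log2) was 9.10 and 9.24 on the fl26 arrays, 8.52 and 8.98 on the svb9 arrays and 8.80 and 9.03 on the old arrays. The green level of young wild type lay between 8.41 and 8.89 over the 6 arrays, with a mean of 8.62 ± 0.18 (SD, n = 6). Both fl26 levels thus lay above all 6 young wild type levels. The higher svb9 level (8.98) and the higher old level (9.03) did so too. The share of all tested probes with this pattern was not counted. It sets red levels against green ones, so a dye effect and a group effect cannot be told apart in it. The net red signal was 1863 and 543 on the fl26 arrays, and the net green signal of young wild type on the same arrays was 447 and 346.

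Timp2, the inhibitor that also takes part in Mmp2 activation, was the member with ratios below 0 on every array that measured it. Log2 ratios were -0.13 and -0.74 in fl26, -0.16 and -0.95 in svb9 and -0.68 on old array 1. The spot on old array 2 was marked as an outlier and left out. In both lines array 2 lay well below array 1, so the 2 arrays of a line differed by more than the lines did. The mean was -0.44 ± 0.23 for fl26, -0.56 ± 0.23 for svb9 and -0.68 ± 0.32 for old wild type (limma standard errors). None passed limma's test, with an adjusted p of 0.592 for fl26, 0.980 for svb9 and 0.502 for old wild type. With outlier spots kept, the old mean over both arrays was -0.91 (adjusted p = 0.225, limma). Of all tested probes, 6.81% were below 0 on every array that measured them (at least 5), so 1 member of 9 with this pattern is close to that share.

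For Timp2 the red and green levels moved differently. The red level was 10.72 and 10.64 in fl26, 10.21 and 10.64 in svb9 and 10.31 on old array 1. The green level of young wild type on the same arrays was 10.85 and 11.38, 10.37 and 11.59, and 10.99. The green level thus spanned 10.37 to 11.59, a wider range than the red, and was highest on array 2 of both lines. The ratio of array 1 minus array 2 was 0.61 in fl26 and 0.79 in svb9. Within a date, Timp2 differed little between groups, by 0.03 for fl26 minus svb9 on the first date and 0.06 for old wild type minus fl26 on the second.

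Timp4, an inhibitor best known from heart and fat tissue, was the member with ratios above 0 on both old arrays and below 0 on all 4 transgenic arrays. Its log2 ratio was 0.33 and 0.17 in old wild type, against -0.24 and -0.15 in fl26 and -0.01 and -0.13 in svb9. Both old arrays lay above all 4 others. Of tested probes with values, 15.2% had both old arrays above both fl26 arrays, and 15.1% above both svb9 arrays. The share above all 4 was not counted. The old mean was 0.25 ± 0.08 (95% interval 0.05 to 0.44), or 1.19-fold, with an unadjusted p of 0.0215 and limma's adjusted p of 0.344. The direction depended on the normalization. When arrays were centred on their median in place of loess, Timp4 was -2.22 in old wild type and 0.12 in fl26. Under that centring, Timp1, Timp3, Mmp7 and Plat were also below 0 in old wild type, at -0.39, -1.55, -1.62 and -0.65. The median of all tested probes was itself moved to between -0.45 and 0.35 on single arrays by this centring, against values from -0.02 to 0.01 under loess.

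The Timp4 levels were also high in the green channel of the old arrays. Its green level was 10.60 and 10.76 there, against 9.81 to 10.35 on the 4 transgenic arrays, although all 6 hold young wild type RNA. Its red level was 10.92 on both old arrays. These levels come from scaling across arrays, and the ratios within arrays do not depend on it.

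Timp1, the inhibitor that is induced in many inflamed and remodelling tissues, stayed near young wild type. The fl26 arrays gave -0.05 and 0.12, the svb9 arrays -0.11 and 0.00 and the old arrays 0.06 and 0.45. Old array 2 was the highest, and old array 1, with red signal near background, lay within the transgenic arrays. The old mean was 0.26 ± 0.11, with limma's adjusted p of 0.454. The 2 other tested probes of Timp1 gave -0.04 and 0.07 in old wild type, so the probes gave neither the same size nor the same sign. Red signal of these 2 probes was not well above background on either old array.

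**Figure D2:**
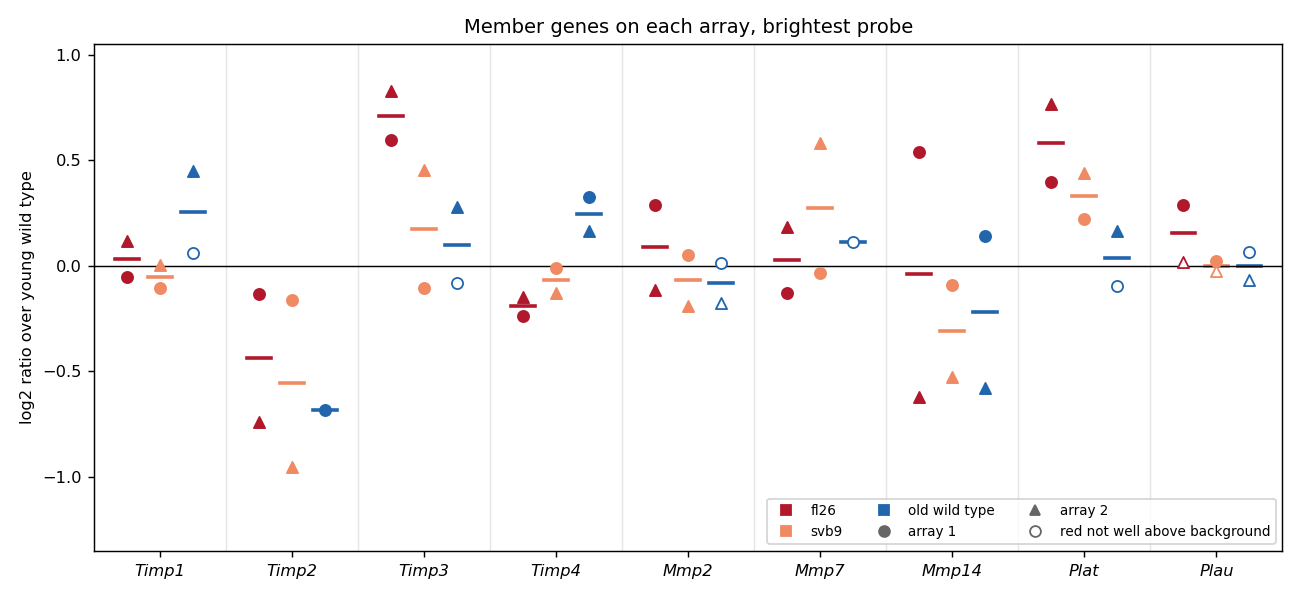
Log2 ratio over young wild type of the brightest probe of each member on each array, for fl26, svb9 and old wild type from left to right, with bars at the group means, and open points where red signal was not well above background. Both fl26 arrays are highest for Timp3 (0.59 and 0.83), both old arrays for Timp4 (0.33 and 0.17), and Timp2 is below 0 on all 5 arrays that measured it.

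Among the metalloproteinases, Mmp14, the membrane-bound activator of Mmp2, varied more between arrays of a group than between groups. It measured 0.54 and -0.62 on the fl26 arrays, -0.09 and -0.53 on the svb9 arrays and 0.14 and -0.58 on the old arrays. Array 1 lay above array 2 in all 3 groups, and the groups overlapped fully. The means were -0.04 ± 0.29, -0.31 ± 0.29 and -0.22 ± 0.29 (limma), and the 95% interval in fl26 ran from -0.75 to 0.67. With median centring the Mmp14 mean was 0.26 in fl26 and -1.98 in old wild type. The green level of young wild type was 8.73 and 8.74 on array 1 of fl26 and svb9 and 9.23 on array 2 of both lines, and 8.88 and 9.83 on the old arrays. A second, dimmer probe of Mmp14 gave -0.05 and 0.02 in fl26, where array 1 was not the higher, and -0.07 and -0.22 in svb9 and 0.25 and -0.13 in old wild type, where it was.

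Mmp2, the gelatinase that cuts denatured collagen and type IV collagen, was close to young wild type. The ratios were 0.29 and -0.11 for fl26, 0.05 and -0.19 for svb9 and 0.01 and -0.18 for old wild type. Array 1 again lay above array 2 in each group. The 95% interval was -0.21 to 0.38 in fl26 and -0.36 to 0.22 in svb9, so a measured ratio of the size found for Timp3 in fl26 lay outside both. Mmp2 was dimmer than Timp3, and the offset draws dim ratios towards 0. The intervals therefore do not exclude a change in RNA of that size.

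Mmp7, also called matrilysin, is an epithelial metalloproteinase that is made by gland epithelia. Ratios of -0.13 and 0.19 were measured in fl26, of -0.03 and 0.58 in svb9 and of 0.11 on old array 1, where red signal was not well above background. The spot on old array 2 was left out as an outlier, and with such spots kept the old mean was 0.47 (adjusted p = 0.451, limma). Here array 2 lay above array 1 in both lines. The svb9 mean was 0.27 ± 0.17, with limma's adjusted p of 0.980.

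Marker genes of fibroblasts moved with array 1 of fl26, where the brightest probes of Mmp14, Mmp2 and Plau also had their highest ratios. The second probe of Mmp14 had -0.05 there. Its highest ratio, 0.25, was on old array 1, where its red signal was not well above background. All 14 fibroblast markers were above 0 on fl26 array 1, with a median log2 ratio of 0.74, against 6 of 13 on fl26 array 2, with a median of -0.05. The medians were 0.25 and -0.05 on the svb9 arrays and 0.07 and -0.18 on the old arrays. Red signal was well above background for 4 of the 14 fibroblast markers on old array 1 and for 12 on old array 2. The summed fibroblast marker level was 9095 to 11364 on fl26 arrays, 8592 to 9444 on svb9 arrays and 7136 to 11399 on old arrays, against 7834 to 13645 in young wild type. These sums cover 13 markers on fl26 array 2 and on old array 2, and 14 on the other arrays. Macrophage markers had medians of 0.36 and 0.05 in fl26, and basal epithelial markers 0.43 and 0.16. Their part in the ratios of the members was not tested. Markers of ventral prostate secretion had medians of -1.16 and 0.36 on the fl26 arrays, -1.22 and 0.38 on the svb9 arrays and 1.69 and 0.94 on the old arrays. All 7 were well above background in young wild type on each array, and of the 7 markers of other lobes and seminal vesicle on the array, Svs2, Svs3a, Svs4, Svs6 and Pate4 were not well above background there on any. Svs5 was well above background in young wild type on 3 arrays, and Pbsn, an androgen-regulated secretory gene, on all 6.

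The plasminogen activator Plat (tissue-type), which is best known for dissolving fibrin, was the second member with a ratio away from 0 in fl26. On the fl26 arrays the log2 ratio was 0.40 and 0.77, on the svb9 arrays 0.22 and 0.44 and on the old arrays -0.10 and 0.17. All 4 transgenic arrays lay above both old arrays, and the fl26 and svb9 arrays overlapped. Red signal on old array 1 was not well above background. Of tested probes with values, 17.6% had both old arrays below both fl26 arrays, and 17.7% below both svb9 arrays. The fl26 mean was 0.58 ± 0.12 (95% interval 0.29 to 0.88), with an unadjusted p of 0.00268 and limma's adjusted p of 0.263. The svb9 mean was 0.33 ± 0.12, or 1.26-fold, with an unadjusted p of 0.0328 and limma's adjusted p of 0.980. With date as a term the fl26 ratio was 0.66 and limma's adjusted p 0.0707, within a range of 0.0166 to 0.9998 over the alternatives.

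The red level of Plat was 7.70 and 8.12 on the fl26 arrays, 7.54 and 7.82 on the svb9 arrays and 7.07 and 7.51 on the old arrays, against a green level of 7.17 to 7.38 in young wild type over the 6 arrays. The 4 transgenic levels lay above all 6 young wild type levels. The higher of the old levels, 7.51, did so too, so this was not particular to the transgenic arrays. The share of all tested probes with this pattern was not counted. The second tested probe of Plat, dimmer, gave 0.22 and 0.14 for fl26, 0.21 and -0.09 for svb9 and -0.19 and 0.06 for old wild type. Its fl26 mean was 0.18 ± 0.11, with the same sign as the brightest probe and a smaller size, and its red signal was well above background on array 1 of each line only. The remaining probe of Plat and the dimmer probe of Plau were not well above background in either channel on any array and were not tested.

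Plau (urokinase-type), the activator that works at cell surfaces through its receptor, gave ratios of at most 0.29 on single arrays. The fl26 arrays had 0.29 and 0.02, the svb9 arrays 0.02 and -0.02 and the old arrays 0.07 and -0.07. The fl26 mean was 0.15 ± 0.09, with limma's adjusted p of 0.623. With the deposited ratios the fl26 mean was 0.39, and with an offset of 16 it was 0.28. The net green signal of this probe was 16.03 to 39.43 in young wild type, near the lower limit of what the arrays measured.

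**Figure D3:**
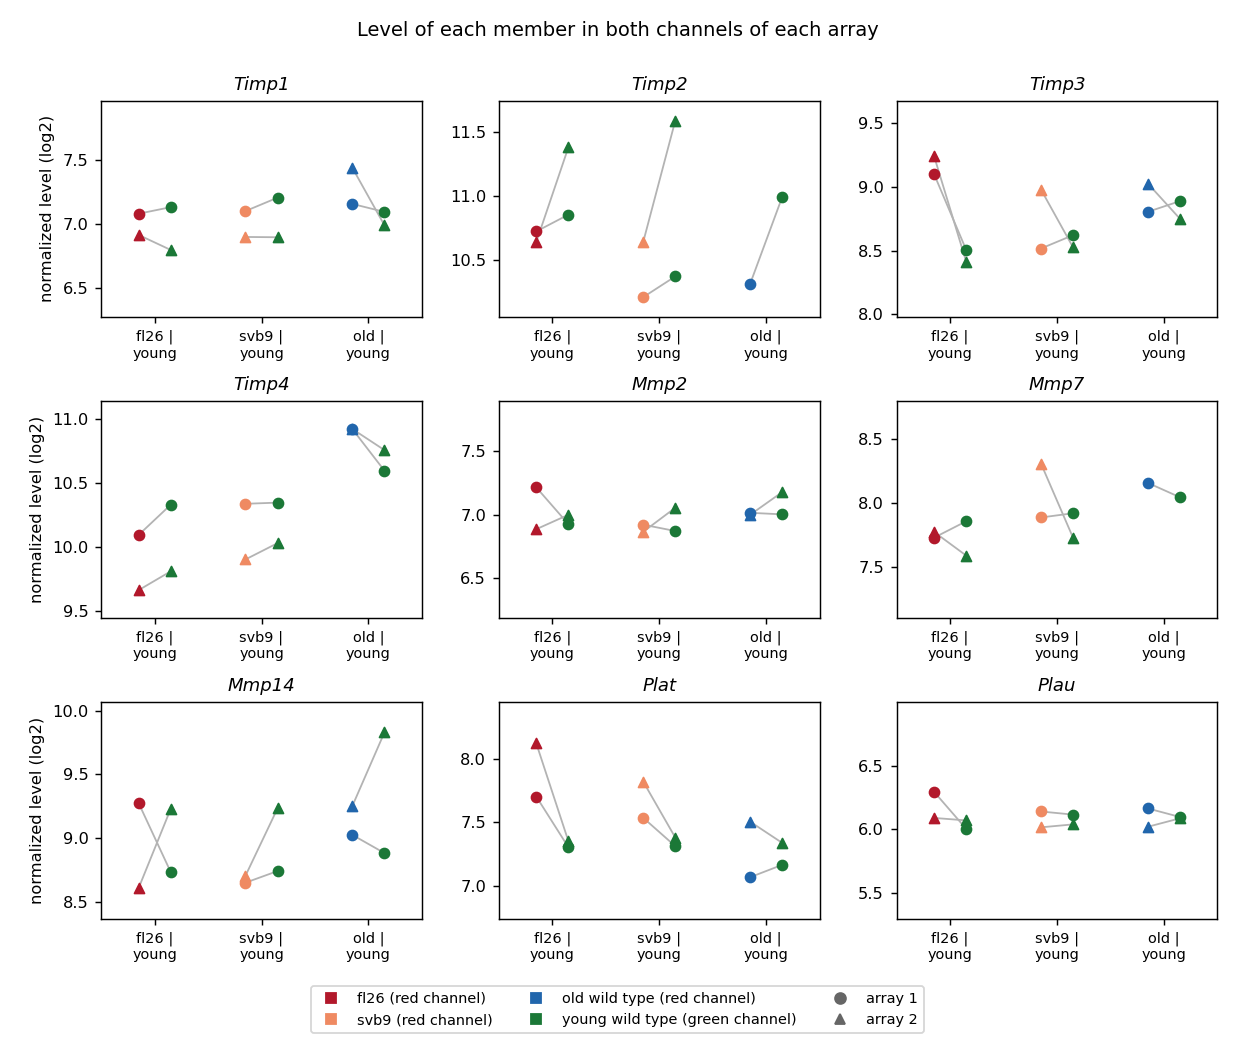
Normalized level (log2) of each member in the red channel (left point of each pair, fl26, svb9 or old wild type) and in the green channel (right point, young wild type) of the same array, with lines joining the channels of an array and a span of 1.7 log2 units on every vertical axis. The fl26 levels of Timp3 (9.10 and 9.24) lie above all young wild type levels. Those of svb9 array 2 (8.98) and old array 2 (9.03) do so too. The share of all tested probes with this pattern was not counted. For Timp2 the green level varies more than the red.

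Counted over the members, the comparison of fl26 with young wild type gave 0 of 13 probes at limma's adjusted p below 0.05, where 0.0503% of all tested probes passed. At an unadjusted p below 0.05 there were 2 member probes, those of Timp3 and Plat, in a background of 10.2% of all probes. In svb9 the counts were 0 probes (background 0%) and 1 probe, that of Plat (background 4.45%). In old wild type they were 0 (background 0%) and 1, that of Timp4 (background 11.4%). With 13 probes, these counts are near what the background share gives. The median over the 9 genes was 0.03 in fl26 and in old wild type and -0.05 in svb9, beside medians of -0.02 to 0.00 over all tested probes.

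The groups were also compared with each other, where all are in the red dye and a dye effect that is equal on every array cancels. A dye effect that differs between arrays does not cancel. These comparisons share arrays with those above and are no independent evidence. In fl26 against svb9, limma called 0 member probes (background 0%), and 1, that of Timp3, had an unadjusted p below 0.05 (background 2.18%). Timp3 was higher in fl26 by 0.54 ± 0.22, with an unadjusted p of 0.0499 in limma and an adjusted p of 0.99995. On the first date, which holds 1 array of each line, the difference was 0.70. Without svb9 array 1 the Timp3 difference was 0.26, and without svb9 array 2 it was 0.82. Plat differed by 0.25 ± 0.17, with an interval of -0.16 to 0.67, so the test does not tell the lines apart for Plat and does not show that they are alike. The intervals of the other 7 members also included 0. The arrays of the lines did not overlap, higher in fl26, for 1 of 9 genes (Timp3, background 12.9% of probes), and lower in fl26 for 1 (Timp4, background 11.6%).

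In old wild type against fl26, limma again called 0 member probes (background 0%), and 3 had an unadjusted p below 0.05 (background 7.74%). Timp4 was higher in old wild type by 0.44 ± 0.11, with an unadjusted p of 0.00792 and limma's adjusted p of 0.511. Timp3 differed by -0.61 ± 0.22 (adjusted p = 0.603) and Plat by -0.55 ± 0.17 (adjusted p = 0.543, limma). On the second date, which holds fl26 array 2 and old array 1, the differences were 0.47 for Timp4, -0.91 for Timp3 and -0.86 for Plat. Red signal for Timp3 and Plat was not well above background on that old array. With median centring the Timp4 difference was -2.34, so its direction depended on the normalization. Of the 7 genes with all values, 1 was higher in old wild type without overlap (Timp4, background 15.2% of probes) and 2 were lower (Timp3 and Plat, background 17.6%). In old wild type against svb9, limma called 0 member probes (background 0%), and 1, that of Timp4, had an unadjusted p below 0.05 (background 4.71%). It was higher in old wild type by 0.31 ± 0.11, and by 0.29 on the third date, which holds svb9 array 2 and old array 2. With median centring this difference was -2.16. Without overlap, 2 of 7 genes were higher in old wild type (Timp1 and Timp4, background 15.1%) and 1 was lower (Plat, background 17.7%).

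**Figure D4:**
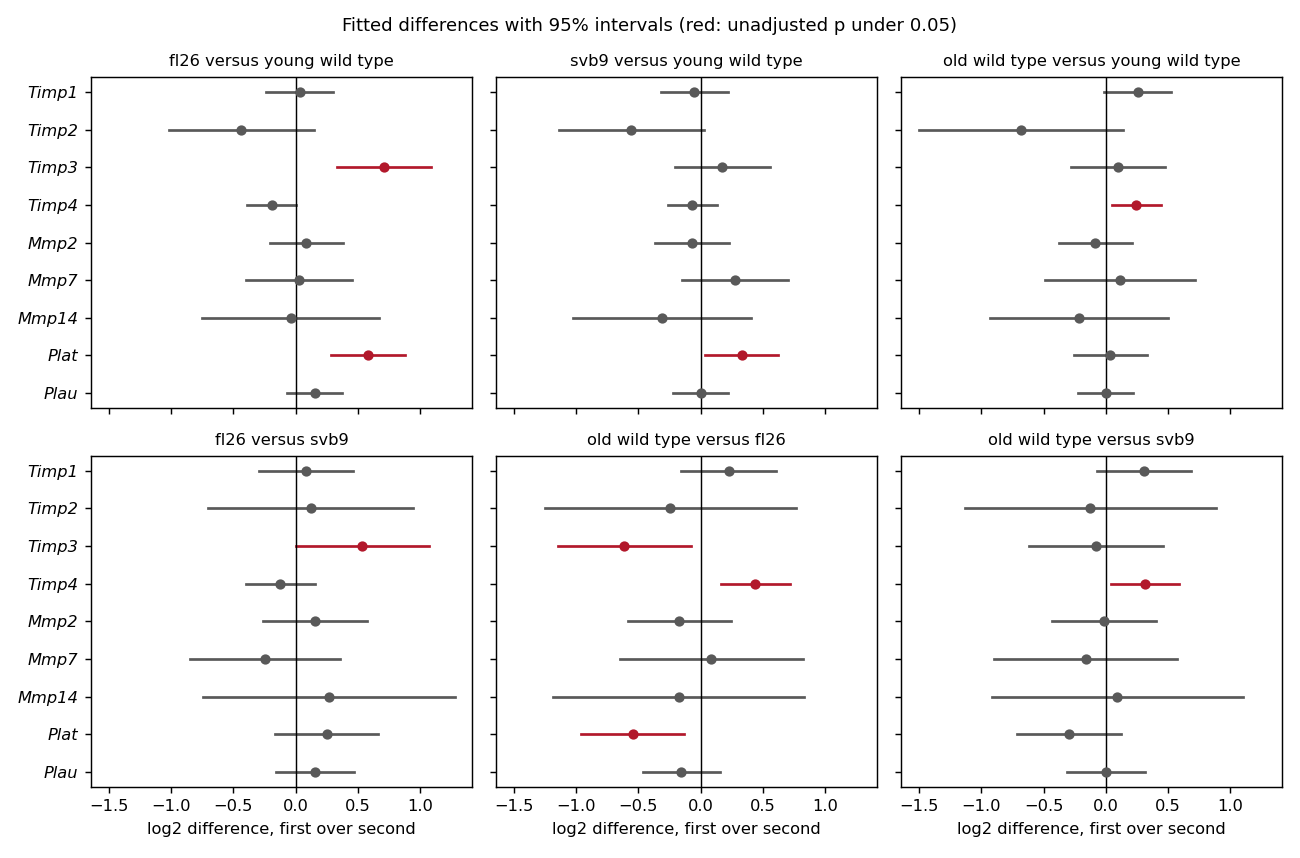
Fitted log2 differences (points) with 95% intervals (lines) of the brightest probe of each member in the 6 comparisons, each as the first group over the second, in red where the unadjusted p was below 0.05. In fl26 over young wild type the intervals of Timp3 (0.33 to 1.09) and Plat (0.29 to 0.88) exclude 0, and no member passed after adjustment.

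The members fell into sets by how they varied over the 6 arrays, given here as a description over arrays that share date and signal strength. Mmp2 and Mmp14 had a Pearson r of 0.95, Mmp2 and Plau 0.94, and Mmp14 and Plau 0.89, all with array 1 above array 2 in each group. Red signal was well above background on 2 of the 6 arrays for Plau and on 4 for Mmp2. For the second probe of Mmp14, array 1 was not above array 2 in fl26. Timp3 and Plat had an r of 0.88, and Timp4 and Plat -0.83. Timp2 and Mmp7 lacked a value on old array 2 and were left out. Of 1282 genes with an SD of at least 0.3 and values on all arrays, those most like Timp3 were Mex3d (r = 0.98), Glo1 (0.96) and Mybph (0.96). Those most like Plat were Gars (0.98), Pcna (0.98) and Dut (0.97), and those most like Timp4 were Stra6 (0.98), Otub1 (0.97) and Wdr20 (0.96). For Timp1 they were Atp7b (0.99), Itga1 (0.99) and Trim39 (0.98), and for Mmp2 Nt5dc3 (0.99), Col16a1 (0.99) and Nbeal1 (0.99). For Mmp14 they included Tysnd1 (0.98) and Agrn (0.98), and for Plau they were Plk2 (0.99), Lgi2 (0.98) and Car8 (0.97). Between 10 genes (Timp3) and 139 genes (Mmp14) had an r above 0.9 with a member, so such likeness was common over 6 arrays.

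The genes that work with the members gave 0 calls by limma in any comparison, among 104 tested genes of the 130 in 7 lists. In the comparisons with young wild type, the smallest adjusted p among them was 0.139, for Ctsb in old wild type. In the list of other Mmps, 12 of 20 genes were tested. None of the 12 had an unadjusted p below 0.05 in fl26 or svb9, and their medians were 0.03 and 0.00. In old wild type 2 were higher and 1 lower at that level, beside 11.4% of all tested probes, with Mmp19 at 0.31 ± 0.09 and Mmp15, a membrane-type Mmp, at -0.38 ± 0.13 (arrays -0.14 and -0.61). Red signal of Mmp19 and of Mmp15 was well above background on 1 of the 2 old arrays.

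Of the other plasminogen system genes, 13 of 15 were tested, and their medians lay between -0.00 and 0.02 in the 3 groups. In fl26, 2 of the 13 had an unadjusted p below 0.05, near the 10.2% of all tested probes. Serpini1, a serpin that inhibits tissue-type plasminogen activator, had log2 ratios of 0.41 and 0.49 there, with a mean of 0.45 ± 0.08 and limma's adjusted p of 0.235. F3, the tissue factor that starts clotting, had 0.47 and 0.11. Anxa2, which binds tissue-type plasminogen activator and plasminogen at the cell surface, had 0.33 and 0.36 in old wild type, with limma's adjusted p of 0.272.

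Of the Adam and Adamts proteases, 20 of 28 were tested, with medians of 0.06 for fl26, 0.05 for svb9 and -0.03 for old wild type. In fl26, 5 of the 20 had an unadjusted p below 0.05, all higher, beside 10.2% of all tested probes in either direction. Adamts20 had log2 ratios of 0.38 and 0.79 in fl26 and 0.23 and 0.65 in svb9. Adamts2, which trims the ends of procollagen, had 0.61 and 0.31 in fl26 and -0.24 and -0.31 in old wild type. Its red signal was well above background on 1 of the 2 old arrays. Among other inhibitors and regulators (13 of 15 tested), the median was 0.05 in fl26 and -0.02 in old wild type. Bsg, the surface protein that induces Mmps, had -0.30 and -0.35 in svb9, with limma's adjusted p of 0.980. Reck, a membrane-anchored Mmp inhibitor, had 0.33 and 0.10 in fl26.

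Among cathepsins and other matrix-degrading proteases (11 of 13 tested), the median for fl26 was 0.18, for svb9 0.06 and for old wild type -0.04. Ctsb, a lysosomal cysteine protease, had log2 ratios of -0.70 and -0.58 on the old arrays, both well above background, with a mean of -0.64 ± 0.09. Mme, a membrane metallopeptidase of prostate epithelium, had -1.09 and -0.36 in fl26. Among the epithelial surface serine proteases and their inhibitors, 11 of 13 genes were tested. Their median was -0.04 in fl26 and -0.01 in both other groups. Tmprss2, an androgen-regulated serine protease, had 0.36 and 0.41 in fl26 and 0.38 and 0.43 in old wild type, with limma's adjusted p of 0.229 and 0.189. Spint1, an inhibitor of matriptase and hepsin, had 0.22 and 1.22 in fl26, so its arrays differed widely.

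The matrix and basement membrane proteins that these proteases cut were followed by 24 tested genes of 26. In fl26, 19 of the 24 were above 0, with a median of 0.20, beside 50.1% of all tested probes above 0. This rested on array 1, where 23 were above 0 with a median of 0.37, against 10 with a median of -0.04 on array 2. Lamb1, a laminin chain of basement membranes, had 0.64 and 0.25 in fl26, and Fbn1, a fibrillin, had 0.90 and 0.15. Fibroblast markers had the same split between the fl26 arrays, and 6 genes are in both lists. The part of the fibroblast markers in this split was not tested. In old wild type 10 of 24 were above 0, near the 43.9% of all tested probes, with a median of -0.06, where Sparc, a collagen-binding matrix protein, had -0.62 and -1.24 and Col1a2 had -0.66 and -0.97. Red signal of both was well above background on 1 of the 2 old arrays, and limma's adjusted p was 0.221 and 0.210. In svb9 the median was 0.06, and Col4a1, a basement membrane collagen, had 0.29 and 0.36.

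**Figure D5:**
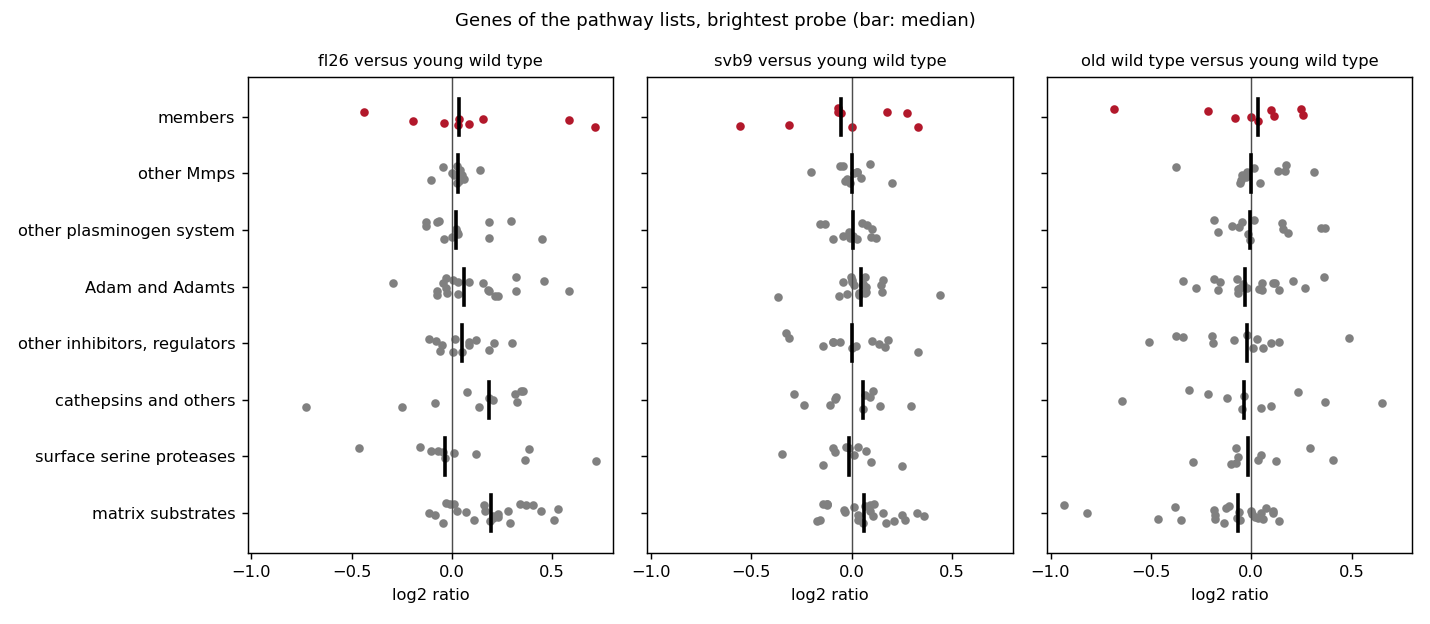
Log2 ratios over young wild type of the members (red) and of the tested genes of the 7 pathway lists (grey), 1 point a gene by its brightest probe, with bars at the medians, for fl26, svb9 and old wild type. The matrix substrates have a median of 0.20 in fl26 and -0.06 in old wild type, and the other Mmps have medians between -0.00 and 0.03, with single genes at 0.31 and -0.38 in old wild type.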

How the data were processed

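RNA of ventral prostate was hybridised to 6 two-colour Agilent arrays. Per the file headers, spots were read with Feature Extraction A.7.5.1, and the deposited files give mean and background intensity per channel, not normalized. The deposited log10 ratios were background-subtracted and dye-normalized by that software, per the file headers, and were used as an alternative. The other columns, flags of each spot for signal well above background, saturation and outliers, are deposited as given.

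From the intensities, control spots (2256 of 43790) and outlier spots were left out, background was corrected with normexp (offset 50), and arrays were loess-normalized in R 4.3.3 with limma 3.58.1. The test covered 27860 probes, those that both arrays of some group showed well above background in one channel. Group means of the log2 ratio were estimated by a linear model over the 6 arrays, with a shared estimate of the spread. Tests were 2-sided, with Benjamini-Hochberg adjustment over all probes and a threshold of 0.05. Levels per channel were scaled across arrays by their mean intensity (Aquantile). The fit was tested on simulated data.

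Gene names came from the RefSeq gene table (GRCm38.p6), which named 20716 probes through the systematic name. Other probes kept the file's name. The brightest probe stands for a gene. The text names every member. Of each pathway list it names genes among the 3 of largest ratio in a comparison, and for each member with values on all arrays the 3 genes most like it, of which 1 is not reported here. The members and lists were chosen with earlier results of these data known. Alternatives covered background, normalization, filters, flags, variance model, date, replicate number and leaving out each array. The file headers give 3 Feature Extraction dates, which hold fl26 array 1 with svb9 array 1, fl26 array 2 with old array 1, and svb9 array 2 with old array 2. The number of arrays limits the precision.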

Additional observations from a re-analysis of the deposited data

Results flagged for a closer look

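The green level of Plat (young wild type, log2) on old array 1 was 7.17, apart from the other 5 arrays, which lay between 7.31 and 7.38. The gap was 0.646 of the whole range, above Dixon's 95% critical value for 6 arrays. The young wild type levels of the 9 members were examined in this way, and chance alone marks about 1 in 20 such groups. The cause was not tested.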

How the results depend on the processing

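Each comparison was repeated under up to 20 alternatives. The count of member probes called stayed at 0 in all but 3 of these. With the replicate number as a block, limma called 3 member probes in fl26 (Timp3, adjusted p = 0.0148, Plat, 0.0166, and Timp2, 0.0465) and 1 in old wild type (Timp2, adjusted p = 0.0196). The Timp2 value was then -1.03 because the block stands in for the missing array. With date as a term, limma called 1 in fl26 (Timp3, adjusted p = 0.0333). The cause was not tested. The labels do not say that numbers 1 and 2 pair arrays, and with 2 pairs the data cannot settle it. Arrays of the same number deviated together, with an r of 0.586 between the lines, 0.331 between fl26 and old, and 0.166 between svb9 and old. Leaving out each array in turn gave counts of 0 to 0.

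Of 1038 member values under the alternatives, 77 had the opposite sign, called neither way. Over all probes, the 14 calls in fl26 were 1001 with the block, 121 with date, 63 with a variance trend, 59 with an offset of 16, and 0 with median centring or with either svb9 or old array left out. They were 2 without background subtraction, 6 with the deposited ratios, 3 with the strict filter, 8 with 1 probe a gene, 0 to 1 without an fl26 array, and 0 with the fl26 arrays alone. In old wild type, the 0 calls were 1211 with the block, 484 with an offset of 16, 176 with a trend, 62 with the strict filter, 53 with the old arrays alone, 11 with date 8 with outlier spots kept and 2 without either fl26 array. In svb9 they were 12 with the block. Between groups, the 0 calls were at most 10 (fl26 against svb9) and 25 (old against fl26), both with the block. Red signal near background on old array 1 limits the old comparison.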
